A study of Mus musculus with 1279 samples.

Results

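Cluster 3 was a group of fibroblasts of the adult mouse heart, chosen by the cluster number that the deposited labels give each cell. It held 90 C57BL6, 7 PdgfrbGFP, 14 Acta2GFP and 1 Cspg4dsRED cells, 8.76% of the 1279 cells in all. Of the 926 cells in the fibroblast clusters 1 to 5, it held 12.1% (95% Wilson interval 10.1 to 14.4). Igfbp3, a secreted protein that binds insulin-like growth factors, was higher than in the fibroblast clusters 2, 4 and 5 by 5.51 ± 0.76 on the log2 scale (SE, 3 strains). The actin-associated LIM protein gene Pdlim3, the Cdc42 effector gene Cdc42ep3, the fibrinogen-like gene Fgl2 and Ahsg (fetuin-A, a serum glycoprotein known as an inhibitor of calcification) were also higher. The matrix genes Fbln2, Smoc2 and Prelp and Pi16, a gene of adventitial fibroblasts, were lower, Fbln2 by a log2 difference of -2.14 ± 0.28.

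Fibroblasts of the heart make and turn over the interstitial matrix between cardiac muscle cells and around vessels, and they are recognised by Pdgfra, Dcn and the fibrillar collagens. The walls of vessels hold mural cells, which are pericytes or smooth muscle, and smooth muscle cells are recognised by contractile genes. Insulin-like growth factor binding proteins are secreted carriers that hold the growth factors in the extracellular space and set how much reaches the receptor. LIM proteins and Cdc42 effectors act inside the cell on actin filaments.

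Each cell came from a male mouse aged 10 to 20 weeks and was sequenced with Smart-seq2, a plate-based method that reads full-length cDNA without molecular identifiers. C57BL6 cells were wild type and had been sorted with antibodies against the PDGF receptors, PdgfrbGFP cells carried green fluorescent protein under regulatory sequences of Pdgfrb, Acta2GFP cells the same protein under those of Acta2, and Cspg4dsRED cells a red protein under those of Cspg4. All reporter lines had been crossed to C57BL6 animals, and for Acta2GFP hearts elastase was added to the dissociation. The labels name no animal, so the strain was the replicate. Strain and sort cannot be told apart, and in the reporter strains plate cannot be told apart from them either. Clusters 2, 4 and 5, the other fibroblast clusters without the valve cell signature of cluster 1, served as the comparison and held from 80 to 435 cells in each of C57BL6, PdgfrbGFP and Acta2GFP. The sums over cluster 3 cells held 24722213 counts in C57BL6, 2161999 in PdgfrbGFP and 5457570 in Acta2GFP, so that 1 count was worth 0.0404, 0.463 and 0.183 CPM, the count scaled to a common library total. The sums over clusters 2, 4 and 5 held from 32408635 to 135326158 counts.

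The share of cluster 3 among fibroblasts differed between captures. It was 16.5% in C57BL6 (13.7 to 19.9, Wilson 95%), 11.7% in Acta2GFP (7.08 to 18.6), 2.97% in PdgfrbGFP (1.44 to 5.99) and 3.85% in Cspg4dsRED (0.682 to 18.9). The C57BL6 cells came from 2 plates with more than 1 cell. Cluster 3 made up 18.8% (14.8 to 23.7) of the fibroblasts on the plate that also held 37 mural cells and 13.9% (10.2 to 18.8) on the plate that held none. The interval for PdgfrbGFP lay below those of both C57BL6 plates and of Acta2GFP. Each reporter strain was 1 plate, and the intervals cover counting error only, so no test of the shares was made.

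**Figure D1:**
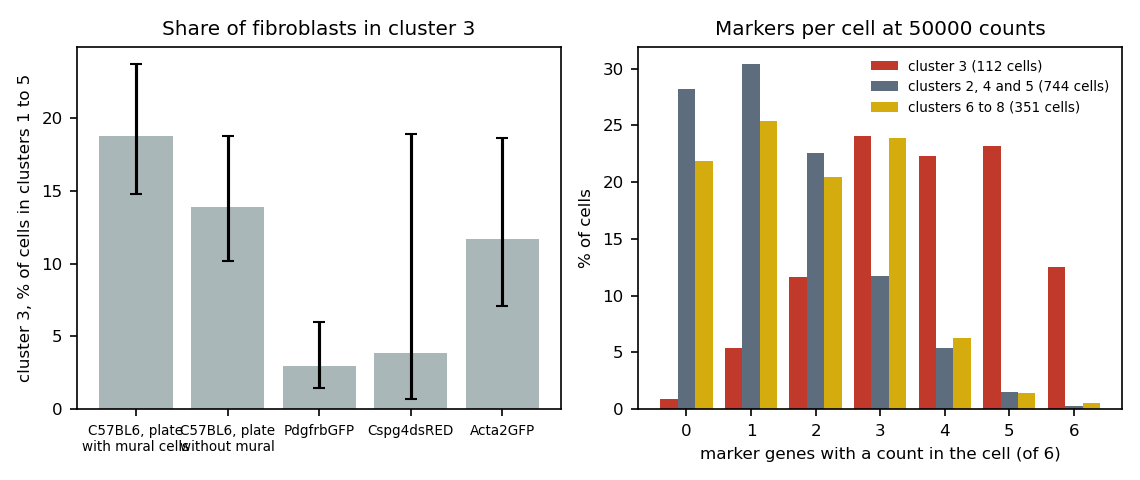
Left, cluster 3 as a percentage of the cells in clusters 1 to 5 for each plate, with Wilson 95% intervals as bars. Right, the percentage of cells with a count for 0 to 6 of the marker genes Igfbp3, Pdlim3, Vit, Fgl2, Cdc42ep3 and Ahsg after each cell was thinned to 50000 counts. Cluster 3 cells peak at 3 to 5 markers, and those of clusters 2, 4 and 5 at 0 or 1.

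The fibroblast label was borne out by the defining genes. Pdgfra, Col1a1, Col1a2, Dcn, Lum, Tcf21 and Dpt summed to 13922 ± 968 CPM (SD, n = 3 strains) in cluster 3, and clusters 1, 2, 4 and 5 ranged from 13063 to 15039 CPM. None of the 7 was called in the comparison with clusters 2, 4 and 5 described below, and their median fitted log2 difference was 0.08. Dcn, a collagen-binding proteoglycan, stood at 6534, 6369.6 and 4767 CPM in the strains C57BL6, PdgfrbGFP and Acta2GFP against 6049, 6574 and 4538 CPM in the other clusters. Endothelial markers summed to 88.2 CPM, beside 91.9, 13.8, 72.7 and 23.1 CPM in clusters 1, 2, 4 and 5. In PdgfrbGFP they summed to 155.9 CPM in cluster 3 and to 202.2, 6.65, 25.8 and 14.8 CPM in clusters 1, 2, 4 and 5. Immune markers summed to 9.63 CPM in cluster 3 and Schwann cell markers to 0.108 CPM, with 1 of 3 at 0. Cardiac muscle cell genes summed to 59.6 CPM. Of the 7 epicardial or mesothelial markers, 5 had no count in any cluster 3 cell, and Tbx18 alone stood at 85.9 CPM on average, the same as the sum. The valve interstitial markers that set cluster 1 apart summed to 165.6 CPM in cluster 3 and 7001 CPM in cluster 1.

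Promoters of 3 of the marker genes are shown because their transcripts were higher together in cluster 3 of every strain, so that what their proximal sequences share can be read directly. They run from 250 bases before to 50 bases after the annotated start (RefSeq, GRCm38.p6), 5′ to 3′ on the strand of the gene, with motif matches in capitals. The Igfbp3 window lies on the minus strand at chr11:7213874-7214173, the Pdlim3 window on the plus strand at chr8:45885237-45885536 and the Fgl2 window on the plus strand at chr5:21372423-21372722.
Igfbp3: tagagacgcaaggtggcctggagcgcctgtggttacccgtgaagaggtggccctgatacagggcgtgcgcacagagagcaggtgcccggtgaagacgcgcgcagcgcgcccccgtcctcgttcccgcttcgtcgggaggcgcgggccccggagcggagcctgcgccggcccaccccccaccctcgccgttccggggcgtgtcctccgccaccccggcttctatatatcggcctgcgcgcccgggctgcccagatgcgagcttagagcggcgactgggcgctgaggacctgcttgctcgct
Pdlim3: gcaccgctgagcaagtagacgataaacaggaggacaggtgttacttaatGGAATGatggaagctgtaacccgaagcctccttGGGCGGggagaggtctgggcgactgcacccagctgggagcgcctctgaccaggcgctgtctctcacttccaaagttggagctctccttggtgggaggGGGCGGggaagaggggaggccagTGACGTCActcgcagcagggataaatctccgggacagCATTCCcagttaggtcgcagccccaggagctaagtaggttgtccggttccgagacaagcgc
Fgl2: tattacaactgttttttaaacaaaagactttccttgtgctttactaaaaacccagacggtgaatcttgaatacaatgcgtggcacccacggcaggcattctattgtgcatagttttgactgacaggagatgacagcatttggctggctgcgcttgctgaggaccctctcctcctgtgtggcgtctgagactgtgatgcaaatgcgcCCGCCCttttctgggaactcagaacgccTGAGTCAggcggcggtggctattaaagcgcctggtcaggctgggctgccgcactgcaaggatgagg
The letters searched on both strands were the TATA box TATAAA, the GC box GGGCGG, the E-box CACGTG, the AP-1 site TGANTCA, the TEAD site GGAATG, the cyclic AMP response element TGACGTCA and the nuclear receptor element AGGTCA. The Igfbp3 window held none of them. The Pdlim3 window held 2 GC boxes, 2 TEAD matches and 1 cyclic AMP response element, and the Fgl2 window held 1 GC box and 1 AP-1 match. Over all 32851 promoters in the table, 35.7% held a GC box, 14.7% a TEAD match, 7.81% an AP-1 match, 1.79% a cyclic AMP response element, 13.6% TATAAA, 7.15% an E-box and 16.3% a nuclear receptor element. Of the 29 genes named by rule, 21 had a promoter in the table. These shares are per window, whereas a gene with several windows (4 for Kcnk2, 3 for Apoe and 2 for Csrp1) was counted where any of them matched, so the counts of genes are not on the same base. Among the 10 of these that were higher in cluster 3, a GC box stood in 6, a TEAD match in 2, and an AP-1 match and a cyclic AMP response element in 1 each. TATAAA stood in 1 of them. Among the 11 lower genes, the GC box stood in 4, the TEAD match and TATAAA in 2 each, and the AP-1 match and the nuclear receptor element in 1 each. A match describes letters only.

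The fold changes below come from counts summed over the cells of each strain and side. The cluster numbers were made by the authors from the same counts, so the p-values order genes by how stable their difference was across strains and are no independent evidence that the cluster exists. In edgeR's quasi-likelihood test without a strain term, 0 of 14803 genes passed an adjusted p of 0.05 (0%), while 895 had an unadjusted p under 0.05 (6.05%). Limma-voom also passed 0 genes. DESeq2 passed 387, of which 58 were higher and 329 lower in cluster 3, and edgeR without the filter on low counts passed 8 higher and 11 lower. Within a strain, both sides deviated together, though weakly. With strain as a block edgeR passed 35 genes (0.236%), of which 26 were higher (0.176%) and 9 lower (0.0608%) in cluster 3. Those calls need the 7 PdgfrbGFP cells, because without that strain the blocked fit passed 0 genes, against 82 without C57BL6 and 69 without Acta2GFP. Below, "called" means an adjusted p under 0.05 in edgeR with strain as a block, in the comparison with clusters 2, 4 and 5, unless another fit or cluster is named. Log2 differences and their SE come from the fit without the block, in which the median over all genes was -0.13. In the fit with the block that median was -0.84.

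All 6 marker genes lay higher in each of the 3 strains, and no cluster 3 sum overlapped a sum of the other clusters. They had been picked as markers of this cluster, so this is a description. Among all genes tested, 2.64% lay wholly above the other clusters in this way, and 0.486% were higher by 2-fold or more in each strain, as all 6 markers were.

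Igfbp3 (ENSMUSG00000020427, chr11:7206086-7213923, GRCm38) stood at 1293 CPM in C57BL6, 4167 CPM in PdgfrbGFP and 2125 CPM in Acta2GFP. In clusters 2, 4 and 5 of the same strains it stood at 64.6, 106.97 and 13.2 CPM. The lowest cluster 3 sum was above the highest of the others by a wide margin, and the strains of cluster 3 themselves spread widely. The fitted log2 difference was 5.51 ± 0.76 (SE), with an edgeR adjusted p of 0.123 without and 0.000734 with the strain block. Mean Igfbp3 over strains was 2528 CPM in cluster 3 beside 221.9, 30.4, 23.1 and 143.8 CPM in clusters 1, 2, 4 and 5. The mural clusters 6, 7 and 8 had 441, 7.90 and 251.1 CPM. Single cells varied: the median cluster 3 cell had 933 CPM of Igfbp3 and the middle 50% ran from 12.9 to 3034 CPM, while the median cell of clusters 2, 4 and 5 had 2.90 CPM.

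Cdc42ep3, which binds the small GTPase Cdc42, stood at 303, 540.2 and 582 CPM across C57BL6, PdgfrbGFP and Acta2GFP. Clusters 2, 4 and 5 had 53.3, 36.3 and 14.3 CPM. The fitted log2 difference was 3.95 ± 0.60 (edgeR adjusted p = 0.0168 with the strain block, and 0.0524 with plates as both replicates and block). It was also called against cluster 2 and against cluster 4 in fits of the separate clusters, with log2 differences of 4.48 and 4.10. A long non-coding gene, Gm17315, overlaps its first bases on the other strand, and the strand setting of the counting is not given in the sources used here.

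Pdlim3, whose protein links to actinin in muscle, stood at 626, 937 and 553 CPM against 180.3, 71.8 and 77.7 CPM. No strain overlapped. Here cluster 3 was not the highest of all clusters, since its mean of 705 CPM was below those of clusters 1, 6 and 7, at 812, 925 and 988 CPM. The difference from clusters 2, 4 and 5 was 2.85 ± 0.46 on the log2 scale (edgeR adjusted p = 0.00942 with the strain block).

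Ahsg stood at 464, 215.5 and 471 CPM against 54.5, 48.8 and 30.8 CPM. It is known mainly as a product of the liver. Its level varied widely from cell to cell, with a median of 6.35 CPM and an upper quartile of 672 CPM over cluster 3 cells, and the mural clusters had at most 2.30 CPM on average. Its log2 difference was 3.23 ± 0.52 (edgeR adjusted p = 0.0326 with the strain block).

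Fgl2 stood at 495, 429 and 573 CPM against 131.96, 85.1 and 86.2 CPM, and Vit at 287.2, 275.2 and 457 CPM against 50.2, 62.5 and 51.4 CPM. Both were separated in every strain. Fgl2 was called (log2 difference 2.46 ± 0.40, edgeR adjusted p = 0.0168 with the strain block) and Vit was not (2.79 ± 0.49, adjusted p = 0.0565). Vit passed in edgeR without the block when clusters 2, 4 and 5 were given equal weight, a fit in which 0.253% of genes passed (adjusted p = 0.0119). The whole of Fgl2 lies within Ccdc146 on the other strand.

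Single cells carried these genes in combination. With every cell thinned to 50000 counts, 65 cluster 3 cells (58.04%) had a count for 4 or more of the 6 markers, 14 for all 6 and 1 for none. In clusters 2, 4 and 5, 53 of 744 cells (7.12%) reached 4, and in the mural clusters 29 of 351 did (8.26%). Cluster 1 lay between, with 24 of 70 cells (34.3%) at 4 or more and a median of 3 markers against 4 in cluster 3. Igfbp3 was detected in 77.7% of thinned cluster 3 cells, 25.1% of the cells of clusters 2, 4 and 5 and 21.7% of mural cells, Pdlim3 in 72.3%, 35.1% and 62.7%, and Ahsg in 45.5%, 13.7% and 7.12%. In cluster 1, Pdlim3 was detected in 85.7% of cells, more than in cluster 3, Cdc42ep3 in 57.1% beside 56.2% in cluster 3, and Igfbp3 in 34.3%. Without thinning, Igfbp3 had a count in 87.5%, 59.1% and 35.9%. Counts of a few CPM also occur in cells that should lack a gene. Rgs5, a pericyte gene, had a count in 90.05% of the cells of clusters 2, 4 and 5 on the C57BL6 plate with mural cells and in 3.76% on the plate without them.

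**Figure D2:**
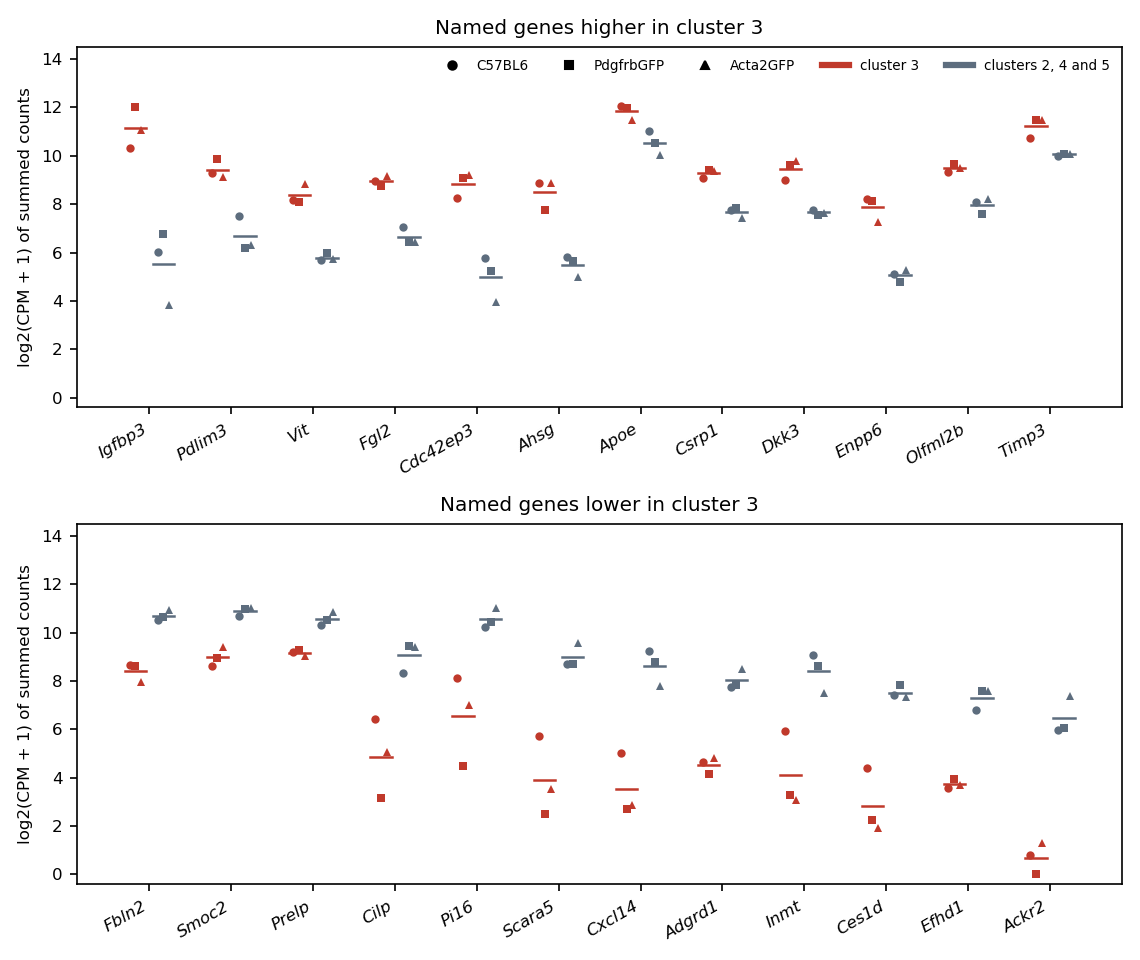
Level of the 12 named genes per direction as log2(CPM + 1) of counts summed per strain, with cluster 3 in red and clusters 2, 4 and 5 in grey, 1 point per strain and the mean of 3 strains as a line. In all 24 genes the 3 cluster 3 points lie on one side of the 3 others, for example 1293 to 4167 CPM against 13.2 to 106.97 CPM for Igfbp3. Levels of different genes are not corrected for length.

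The 6 other genes taken by the same rule as higher were Apoe, Timp3, Dkk3, Csrp1, Olfml2b and Enpp6. Apoe, the lipid-carrying apolipoprotein, stood at 4317, 4042 and 2866 CPM against 2071, 1472 and 1048 CPM. Its levels fell in the same strain order on both sides, and its difference was called (log2 1.43 ± 0.25, edgeR adjusted p = 0.000172 with the strain block), though against cluster 5 alone it was not (0.78 ± 0.22, adjusted p = 0.784 with the block). Timp3, an inhibitor of matrix metalloproteinases that binds to matrix, stood at 1705, 2895 and 2846 CPM against 1021, 1078 and 1089 CPM and was called. It lies within Syn3 on the other strand, and Syn3 was called in the same direction, so reads of this pair may have been split between them.

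Dkk3, a secreted protein of the Dickkopf family, stood at 513, 789 and 882 CPM against 216.8, 188.4 and 199.1 CPM and was called. Cluster 1 had more, 3256 CPM on average. Csrp1, a LIM protein of smooth muscle and other actin-rich cells, stood at 538, 681 and 654 CPM against 212.9, 227.6 and 169.2 CPM and was called. Olfml2b, an olfactomedin-like matrix gene, stood at 635, 813 and 725 CPM against 273.8, 192.6 and 298.4 CPM and was called. It was not with plates as both replicates and block (edgeR adjusted p = 0.0553). Enpp6, a choline phosphodiesterase, stood at 295.5, 280.3 and 154.5 CPM against 33.96, 26.1 and 37.7 CPM and was not called (adjusted p = 0.159).

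Of the 12 genes taken as lower, Smoc2, Fbln2, Cxcl14, Prelp, Scara5, Inmt and Pi16 were called. With plates as both replicates and block, Scara5 and Pi16 were not (edgeR adjusted p = 0.0824 and 0.120). Fbln2, a matrix protein that bridges elastic fibres and basement membranes, stood at 401, 390.4 and 247.9 CPM against 1466, 1628 and 1964 CPM (log2 difference -2.14 ± 0.28, edgeR adjusted p = 0.000738 with the strain block). Smoc2, a calcium-binding matricellular protein, stood at 393, 492 and 671 CPM against 1636, 2028 and 2082 CPM. Prelp, a leucine-rich proteoglycan, stood at 586, 628 and 524 CPM against 1273, 1478 and 1831 CPM. Single cells varied. The median cluster 3 cell had 62.6 CPM of Fbln2, 49.9 CPM of Smoc2 and 406 CPM of Prelp, with upper quartiles of 580.4, 725 and 836 CPM. In clusters 2, 4 and 5 the medians were 1340.2, 1731 and 1335 CPM.

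Cxcl14 and Scara5 had lower sums in cluster 3 than these. Cxcl14, a chemokine, stood at 31.2, 5.55 and 6.23 CPM against 599, 439 and 222.996 CPM (log2 difference -4.78 ± 0.78). Scara5, a scavenger receptor that binds ferritin, stood at 52.02, 4.63 and 10.6 CPM against 412, 413 and 750.4 CPM. In both the highest sum of cluster 3 was in C57BL6, the strain with 90 of the cells.

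Inmt, an amine methyltransferase, stood at 59.5, 8.79 and 7.51 CPM against 543, 391 and 182.8 CPM and was called. Pi16 stood at 275.2, 21.7 and 126.8 CPM against 1213, 1377 and 2055 CPM and was called (adjusted p = 0.0156). Adgrd1, an adhesion G protein-coupled receptor, stood at 24.5, 16.7 and 27.1 CPM against 215.5, 228.4 and 363 CPM and missed the threshold (adjusted p = 0.0871). Cilp, Ces1d, Efhd1 and Ackr2 had fitted log2 differences between -6.80 and -3.57 and were not called.

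Ackr2, a receptor that scavenges chemokines, was listed at 0 in PdgfrbGFP cluster 3 cells, where 3 counts would have been 1.39 CPM. It stood at 0.728 CPM in C57BL6 and 1.47 CPM in Acta2GFP against 61.9 and 166.6 CPM. Its mean in cluster 4 was 212.4 CPM and in cluster 2 only 8.49 CPM, so the difference in level was wider from cluster 4 than from cluster 2.

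**Figure D3:**
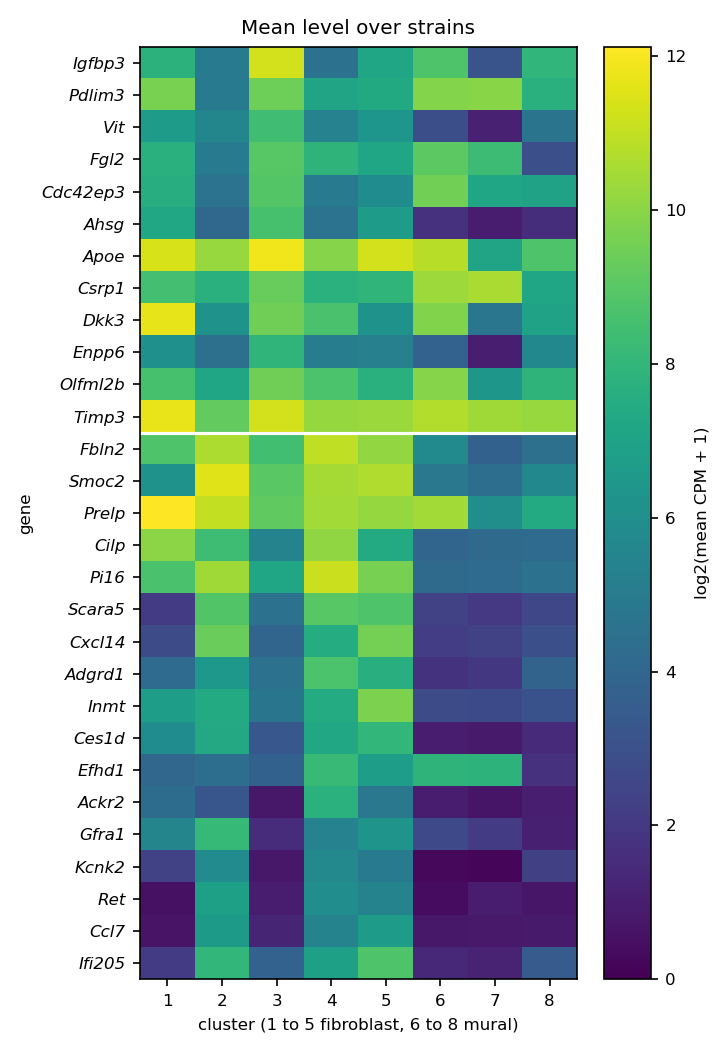
Mean level over strains of the 29 named genes in clusters 1 to 8, as log2(mean CPM + 1), with genes higher in cluster 3 above the white line. Igfbp3, Apoe, Vit, Ahsg and Enpp6 are highest in cluster 3, while Pdlim3, Dkk3 and Timp3 are higher still in cluster 1 and Csrp1 in the mural clusters 6 and 7. Levels of different genes are not corrected for length.

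Cluster 3 was next set against each large fibroblast cluster in 1 joint edgeR fit without the strain block. Against cluster 2, 39 of 16629 genes passed (0.235%), 20 of them higher in cluster 3 (0.120%) and 19 lower (0.114%). Against cluster 4, 29 genes passed (0.174%), 12 of them higher (0.0722%) and 17 lower (0.102%). Against cluster 5, 3 genes passed (0.0180%), all lower. With the strain block these counts were 56 (0.337%), 35 (0.210%) and 7 (0.0421%). Cluster 5 had sums in C57BL6 and PdgfrbGFP only, whereas clusters 2 and 4 had sums in all 4 strains, so the counts cannot be ranked as distances. DESeq2 passed 4.32%, 3.67% and 0.967% of genes.

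The lists against clusters 2 and 4 shared 16 genes, which were 41.03% of the first and 55.2% of the second. Igfbp3, Cdc42ep3, Vit, Apoe, Csrp1 and Timp3 were the higher genes among them, and Fbln2, Prelp, Pi16, Scara5, Ces1d, Kcnk2, Ret, Ccl7, Hmcn2 and Adamtsl3 the lower. With the strain block 19 genes were shared (33.9% and 54.3%), and Vit, Pi16, Ces1d, Ret, Ccl7 and Adamtsl3 were not among them. Vit then passed against neither cluster (edgeR adjusted p = 0.0972 and 0.0587). Both comparisons share the cluster 3 sums. Without the block, Pdlim3, Fgl2 and Ahsg passed against cluster 2 and not against cluster 4, as did Dkk3. With it, Fgl2 and Ahsg did not pass against cluster 2 either (edgeR adjusted p = 0.0531 and 0.0805). The log2 differences of the first 3 from cluster 2 were 4.70, 4.14 and 4.66, and from cluster 4 they were 2.55, 1.26 and 4.16, but whether these differ was not tested.

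The 3 genes that passed against cluster 5 without the block were Ccl7, a monocyte-attracting chemokine, Ces1d, a carboxylesterase, and Ifi205, an interferon-inducible gene. With the block Ifi205 passed and Ccl7 and Ces1d did not (edgeR adjusted p = 0.0756 and 0.0957). Ccl7 stood at 1.33, 1.85 and 0.916 CPM in cluster 3 of C57BL6, PdgfrbGFP and Acta2GFP and averaged 104.6, 95.7 and 41.9 CPM in clusters 5, 2 and 4. Ces1d averaged 8.82 CPM in cluster 3 and 255.6 CPM in cluster 5. Ifi205 averaged 13.2 CPM in cluster 3 and 445 CPM in cluster 5.

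With the strain block Fbln2, Smoc2, Prelp and Ifi205 passed against clusters 2, 4 and 5 alike. No gene passed as higher than cluster 5 in either edgeR fit, while 858 (5.16%) had an unadjusted p under 0.05 in either direction in the fit without the block. Igfbp3 had a log2 difference of 4.20 from cluster 5 and an edgeR adjusted p of 0.155 with the block.

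A further 3 genes were nearly missing from cluster 3. Ret and Gfra1, a receptor tyrosine kinase and a coreceptor for ligands of the GDNF family, averaged 0.871 and 1.86 CPM in cluster 3 and 115.7 and 274.99 CPM in cluster 2. Kcnk2, a potassium channel, averaged 0.716 CPM in cluster 3 and from 32.3 to 56.7 CPM in clusters 2, 4 and 5. Each was below the other clusters in all 3 strains, and none was called. The median cell had 0 CPM of each on both sides. Gfra1, Kcnk2 and Ret had a count in 20.5%, 12.5% and 12.5% of cluster 3 cells. In clusters 2, 4 and 5 they had a count in 40.3%, 28.8% and 28.1% of cells.

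**Figure D4:**
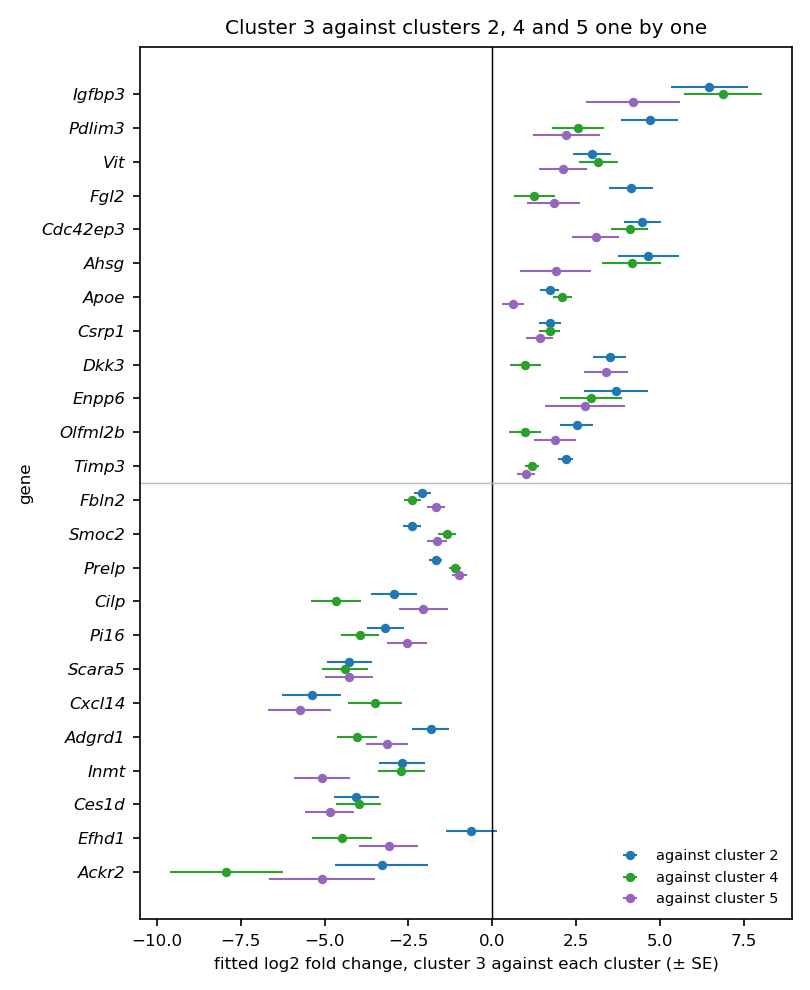
Fitted log2 fold change of cluster 3 against cluster 2, cluster 4 and cluster 5 for the 24 named genes, with standard errors as bars. All 72 points lie on the side of the pooled comparison. Igfbp3 is above cluster 2 by 6.47, above cluster 4 by 6.89 and above cluster 5 by 4.20, and Efhd1 is the gene whose difference from cluster 2 is smallest, at -0.62.

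Among the insulin-like growth factor genes, 14 of the 19 with a count in any cell had enough counts to be tested. Of these 2 were called, both higher, beside 0.176% of all genes tested. They were Igfbp3, a marker picked for this cluster, and Igfbp4. Igfbp4 stood at 2753, 3801 and 2438 CPM against 2017, 2196 and 1538 CPM, a log2 difference of 0.79 ± 0.24. Igfbp6, which prefers IGF-II, stood at 344, 304 and 163.99 CPM against 775, 811 and 699 CPM and missed the threshold with the block (adjusted p = 0.0565). With the block it was lower than cluster 2 and than cluster 4 alone (edgeR adjusted p = 0.0130 and 0.00451), and with the 3 clusters weighted equally it also passed (0.0355). Igfbp7 stood at 2937, 2651 and 1466 CPM against 2365, 2628 and 1455 CPM, which did not separate the groups. The median over the 14 genes was -0.32 beside -0.13 over all genes tested.

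Of the matrix genes, few were called, in both directions. Of 7 fibrillar collagens tested none was called, though Col5a3 was lower than cluster 2 with the block (edgeR adjusted p = 0.0401), and Col1a1 stood at 2451, 2157 and 1976 CPM against 2229, 2428 and 2223 CPM. Of 19 basement membrane genes none was called, but 11 were lower in all 3 strains and 8 lay wholly below, where the background over all genes was 27.3% and 13.6%. Their median log2 difference was -0.70. Against cluster 2 alone with the block, Col4a2, Hspg2 and Lamb1 passed as lower (edgeR adjusted p = 0.0350, 0.0376 and 0.0276). Lamb1, a laminin chain, stood at 214.5, 252.1 and 432 CPM against 612, 529 and 1127 CPM, and Nid1, which links laminin to collagen IV, at 463, 589 and 747 CPM against 1003, 888 and 1393 CPM.

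Of the 22 elastic fibre genes, Fbln1 was called higher and Fbln2 lower. Fbln1, the related fibulin, stood at 4085, 3462 and 3136 CPM against 2368, 2528 and 1512 CPM, so the 2 fibulins moved in opposite directions in every strain. Counting Fbln2, 11 members lay lower in each of the 3 strains, beside 27.3% of all genes tested, among them Fbn1, the main fibrillin, at 436, 329.8 and 501 CPM against 751, 602 and 1382 CPM. Of 28 adhesive glycoproteins, Fgl2, a marker picked for this cluster, and Ecm1 were called higher and Smoc2 lower. Of 32 proteases and inhibitors only Timp3 was called. Over all genes tested, 0.176% were called higher and 0.0608% lower. Timp1, a soluble inhibitor of metalloproteinases, stood at 307, 525 and 227.9 CPM against 124.9, 130.7 and 107.3 CPM, and Mmp2, a gelatinase, at 1357, 864 and 1616 CPM against 2126, 2345 and 2493 CPM. Neither was called, although neither overlapped. In the separate fits with the block, Timp1 passed as higher than cluster 2 (edgeR adjusted p = 0.0245).

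Of the genes of adventitial or progenitor fibroblasts, all 8 were lower in each strain than in clusters 2, 4 and 5 and 7 were wholly below, beside 27.3% and 13.6% of all genes tested, with a median log2 difference of -2.35, but only Pi16 was called. Cd248 stood at 268.1, 11.1 and 176.1 CPM against 653, 708 and 790.3 CPM, Ly6c1 at 12.9, 2.78 and 9.71 CPM against 77.6, 126.7 and 107.5 CPM, and Dpp4 at 0.445, 0.463 and 0.550 CPM against 14.03, 31.7 and 33.1 CPM. The list summed to 888 ± 281.6 CPM in cluster 3 (n = 3), 2641 in cluster 2, 5508 in cluster 4 and 2521 in cluster 5. In cluster 1 it summed to 596 ± 156.1 CPM (n = 4), with strains that overlapped those of cluster 3. Cd34, which the authors name among fibroblast markers shared by their organs and which is on no list here, was also called lower. It stood at 900.1, 1152 and 934 CPM against 1629, 2197 and 2059 CPM.

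Of 19 LIM and actin binding genes tested, Pdlim3, a marker picked for this cluster, and Csrp1 were called higher, beside 0.176% of all genes. In all 3 strains 5 members were higher (26.3%) and 2 lower (10.5%), beside 6.14% and 27.3% of all genes tested. Fhl1, a LIM protein of striated muscle, stood at 650.2, 1038 and 1206 CPM against 405, 579.6 and 629 CPM and missed the threshold (adjusted p = 0.0678). Fhl2, its paralogue, went the other way, at 9.95, 0.463 and 2.38 CPM against 31.8, 40.5 and 97.7 CPM, and was not called.

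Of 20 contractile genes 1 was called, beside 0.236% of all genes tested. It was Myl9, the regulatory light chain of smooth muscle and non-muscle myosin. It stood at 299.6, 542 and 702 CPM against 104.3, 134.4 and 167.1 CPM. Tpm2, a tropomyosin, stood at 180.5, 567 and 398 CPM against 80.1, 92.9 and 127.3 CPM, with no overlap and no call (adjusted p = 0.190), though it passed in edgeR without the block when clusters 2, 4 and 5 were weighted equally (adjusted p = 0.0263). Acta2, smooth muscle actin, stood at 67.1, 720.2 and 1021 CPM against 32.8, 76.7 and 318 CPM. The list had a median log2 difference of 1.63, and 7 of its 20 genes were higher in all 3 strains beside 6.14% of all genes tested.

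The smooth muscle markers Acta2, Myh11, Tagln and Cnn1 summed to 75.2, 948 and 1447 CPM in cluster 3 of C57BL6, PdgfrbGFP and Acta2GFP, and all 4 had counts. Their sums in cluster 2 ranged from 34.9 to 313 CPM and in cluster 4 from 79.9 to 532 CPM. On the C57BL6 plate without mural cells, Myl9 stood at 289.9 CPM in cluster 3 against 88.98 CPM and Tpm2 at 236.1 against 70.9 CPM, with Tagln at 0.141 against 11.3 CPM and Rgs5, Myh11 and Cnn1 at 0 in cluster 3. On that plate 7 of the 20 contractile genes were higher in cluster 3 and 12 lower, against 16 higher on the other C57BL6 plate and on the Acta2GFP plate and 13 on the PdgfrbGFP plate. Myl9 and Tpm2 were thus higher in cluster 3 on the plate without mural cells, as on the other 3 plates, while the contractile list as a whole was not.

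**Figure D5:**
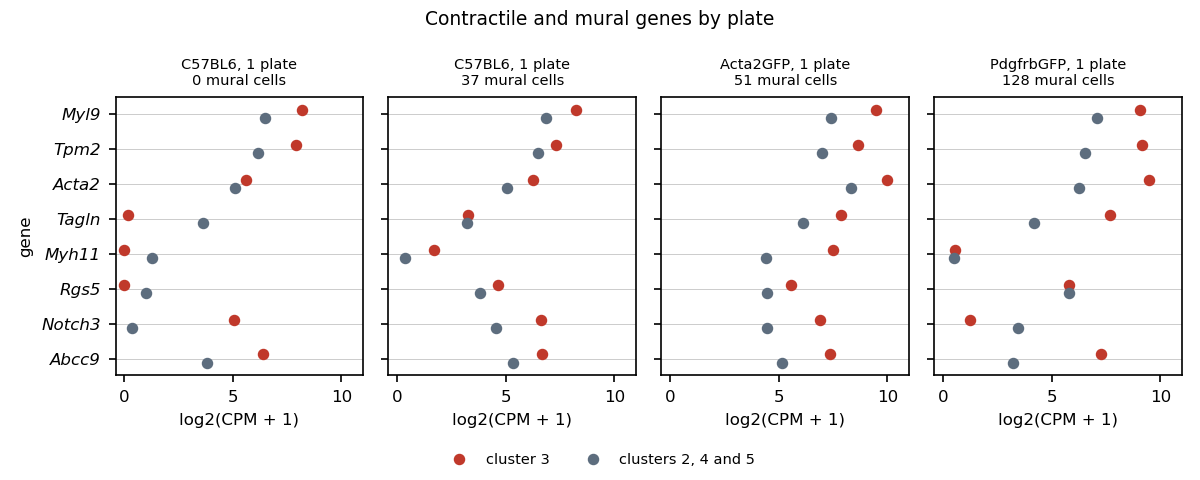
Contractile genes (Myl9, Tpm2, Acta2, Tagln, Myh11) and mural genes (Rgs5, Notch3, Abcc9) as log2(CPM + 1) of counts summed per plate, cluster 3 in red and clusters 2, 4 and 5 in grey, with the number of mural cells on each plate. On the plate with 0 mural cells, Myl9 was at 289.9 against 88.98 CPM and Tagln at 0.141 against 11.3 CPM.

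Pericyte markers were measured as a second check. Kcnj8, Abcc9, Vtn and Higd1b summed to 236.9 ± 40.4 CPM in cluster 3 and from 72.9 to 110.3 CPM on average in clusters 1, 2, 4 and 5. Abcc9, a subunit of the potassium channel with Kcnj8, stood at 94.6, 152.6 and 163.1 CPM against 28.5, 8.43 and 33.97 CPM. It averaged 2424 CPM in cluster 8, where the pericyte markers were highest. Of the 4, Abcc9 was the one higher in all 3 strains. In PdgfrbGFP, Kcnj8 stood at 27.8 against 64.4 CPM and Higd1b at 2.31 against 3.02 CPM. On the plate without mural cells Abcc9 was at 82.3 against 12.97 CPM and Kcnj8 at 84.5 against 18.8 CPM, while Vtn was at 0 against 4.62 CPM and Higd1b at 0 on both sides. None of the 4 was called.

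Signalling genes gave few calls. In the BMP list, Ahsg, a marker picked for this cluster, and Id3, a target of BMP signalling, were called higher. Over all genes tested, 0.176% were called higher. Id3 stood at 1671, 1468 and 764 CPM against 789, 827 and 440.3 CPM. Bmp4, a ligand, stood at 61.3, 111.5 and 28.2 CPM against 239.8, 288.1 and 332 CPM and was not called. Among Wnt genes Dkk3 was called, and Sfrp2, another secreted antagonist, stood at 310.2, 462 and 330.4 CPM against 202.7, 175.1 and 117.6 CPM without a call. None of 20 TGF-beta genes and none of 12 Notch genes was called.

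Of 21 chemokines and cytokines, Cxcl1 was called higher and Cxcl14 lower, beside 0.176% and 0.0608% of all genes tested. Cxcl1 stood at 955, 1775 and 722 CPM against 593, 794 and 423 CPM, while Ccl7 was not called (adjusted p = 0.648). Of 24 immediate early and stress genes, Nr4a1, Zfp36 and Egr1 were called higher, beside 0.176% of all genes tested, and 9 (37.5%) were higher in all 3 strains beside 6.14%. Nr4a1 stood at 2222, 1792 and 1569 CPM against 1339.9, 855 and 901 CPM. Fos stood at 3993, 3481 and 2274 CPM against 3329.6, 3401 and 1943 CPM and was not called. In the separate fits without the block, the list's median log2 difference was 0.49 from cluster 2, 0.73 from cluster 4 and -0.49 from cluster 5. No member passed against cluster 5 with or without the block. These genes are induced by cell dissociation, and the part of handling in their difference was not tested.

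Of 31 mesenchymal and cardiac transcription factors tested, none was called. Tbx20, a T-box factor of heart development, lay wholly above, at 489, 204.4 and 466 CPM against 82.4, 79.4 and 132.6 CPM (log2 difference 2.12 ± 0.48, edgeR adjusted p = 0.128 with the strain block), and cluster 1 had more still, 622 CPM. Tcf21, which marks resident fibroblasts, stood at 675, 554 and 223.9 CPM against 386, 456 and 244.9 CPM, with overlap. Tbx18 stood at 47.4, 133.7 and 76.6 CPM against 20.6, 14.2 and 43.5 CPM.

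In the comparison with clusters 2, 4 and 5, none of the members of the integrin, growth factor, interferon, glucocorticoid, retinoid, PDGF, axon guidance and other collagen lists was called. In the fits of separate clusters, Hsd11b1, which activates glucocorticoids, was lower than cluster 2 with and without the block (edgeR adjusted p = 0.0276 and 0.0295). Klf9 was higher than cluster 4 without it (0.0442), and Sparcl1 lower than cluster 2 with it (0.0237). Their median log2 differences lay between -0.41 for integrins and 0.77 for PDGF genes. Prelp was the only small leucine-rich proteoglycan called of 12, and Apoe the only lipid gene of 19. Of 8 genes of activated fibroblasts, such as Postn, none was called, though with the block Acta2 passed as higher than cluster 2 and Ltbp2 as lower than cluster 4 (edgeR adjusted p = 0.0410 and 0.0499). Pdgfra stood at 464, 487 and 477 CPM against 509, 412 and 642 CPM.

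Measures of RNA content were lower in cluster 3 of each strain than in clusters 2, 4 and 5 pooled. They did not reach significance, which 3 strains could not. At 50000 counts the median cell had 2652 detected genes in C57BL6, 2031 in PdgfrbGFP and 3740 in Acta2GFP against 2747, 2115 and 4144 in clusters 2, 4 and 5. The mean difference was -194.3 ± 182.1 genes (SD, n = 3), lower in 3 of 3 strains (exact sign-flip test, two-sided p = 0.25, the smallest that 3 strains allow). The ratio of endogenous to spike-in counts had medians of 48.2, 44.1 and 80.8 against 53.7, 49.5 and 108.7. Its mean difference was -12.9 ± 12.9 (exact p = 0.25). Cluster 5 alone had fewer detected genes than cluster 3, with medians of 2548 in C57BL6 and 1942 in PdgfrbGFP. Its spike-in ratio had medians of 45.7 and 44.9 there, beside 48.2 and 44.1 in cluster 3. The mitochondrial share of counts differed by 0.124 ± 0.0514 percentage points (exact p = 0.25).

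The cells of cluster 3 were also compared with profiles from the other strains. Each cell of clusters 2 to 5 was correlated over 9683 genes with the mean profile of each cluster built from cells of the other strains. Of cluster 3 cells, 15 (13.4%) were nearest to the cluster 3 profile, 55 to that of cluster 5, 25 to cluster 4 and 17 to cluster 2. In clusters 2, 4 and 5, 67.6%, 76.4% and 77.4% of cells were nearest to their own profile. The shortfall was largest in C57BL6, with 1 of 90 cells. In the other strains, 10 of 14 Acta2GFP cells, 3 of 7 PdgfrbGFP cells and the Cspg4dsRED cell were nearest to their own. The 42.9% in PdgfrbGFP was below the 51.02% to 91.4% of clusters 2, 4 and 5. The 71.4% in Acta2GFP was below the 81.6% and 100% of clusters 2 and 4. For C57BL6 cells the cluster 3 profile rested on only 22 cells of the other strains. The median correlation with the own profile was 0.548 and with the best other profile 0.561. The part of profile size and strain make-up in this was not tested.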

How the data were processed

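RNA was measured in 1279 single cells by Smart-seq2. The authors deposited read counts per gene, raw and unnormalised, made by demultiplexing with bcl2fastq, trimming, alignment to GRCm38 with TopHat2 and Bowtie, and counting with featureCounts. The methods also name a samtools step against doublets. Whether it took out duplicate reads, which would lower the highest counts most, is not given in the sources used here. Before depositing, the authors removed cells of low or very high complexity, endothelial and immune cells and cells without PDGF receptor reads, and clustered the rest on the same counts. How that changes a level cannot be measured here, but genes that drove the clustering differ between clusters by construction. The table had 46609 rows, of which 92 were ERCC spike-ins (1.82% of counts) and were left out of library sizes.

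Counts were summed per strain and cluster for strains with 3 or more cells on each side, filtered with filterByExpr (minimum count 10), scaled by TMM and tested with edgeR 4.0.16 quasi-likelihood in R 4.3.3 with Benjamini-Hochberg adjustment. Limma 3.58.1 and DESeq2 1.42.0 served as alternatives, as did size factors, no filter, plates as replicates, thinned cells, equal weights and leaving out each strain. Python 3.11.15 was used elsewhere. The scripts were tested on simulated data. As the labels name no animals, p-values measure the spread between strains, which may be technical. Both sides of a strain come from the same preparation. Their deviations from the group means correlated weakly, at 0.18 in Acta2GFP, 0.14 in C57BL6 and 0.14 in PdgfrbGFP over 14803 genes. Between strains the values reached at most -0.03, but centring on the group means forces them down where the others are positive. Values with strain as a block are therefore printed beside the results, not in their place. Changing TMM to DESeq2 size factors moved the median log2 difference of all genes from -0.13 to 0.04.

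Named genes were the 6 markers, then 12 per direction. These had to pass the adjusted threshold, and since none did without the block, places went to the smallest edgeR p among genes with 1 direction in 3 strains, 10 CPM or more and counts in 30% or more of cells on the higher side. To these were added 3 per direction for each single cluster, and the called or highest members of each gene list. Members called only with the block, and others given for their separation, were named after their values were seen. The members and lists were chosen with earlier results of these data known. Shares carry Wilson intervals at 95%. Results for some genes and gene lists are not reported here.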

Additional observations from a re-analysis of the deposited data

Results flagged for a closer look

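The single Cspg4dsRED cell of cluster 3 entered no comparison, because 1 cell does not make a sum. It had 3022 CPM of Igfbp3, where the highest of the 25 other fibroblasts of that strain had 55.2 CPM and the highest mural cell 11.9 CPM. Cdc42ep3 stood at 549 CPM in it against a highest value of 523 CPM, and Ahsg at 655 CPM against 255.8 CPM, but 20 mural cells had as much Cdc42ep3 or more, up to 1612 CPM. Pdlim3, Vit and Fgl2 stood at 569, 208.6 and 481 CPM, and 2, 3 and 4 of the other fibroblasts had as much or more, up to 1125, 253.4 and 2083 CPM. The cell was placed in cluster 3 from the same counts, so its levels are a description.

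Of 443 named and listed genes, 3 were higher by 2-fold or more in cluster 3 of C57BL6 and lower in both reporter strains. The log2 difference of Cfb, complement factor B, was 1.13 in C57BL6, -3.43 in PdgfrbGFP and -2.20 in Acta2GFP. Itga1, a collagen-binding integrin chain, had 1.26, -3.81 and -1.68. Smad7, an inhibitor of TGF-beta signalling, had 2.06, -3.05 and -1.57. Both C57BL6 plates had the direction of their strain. The differences between strains were not tested, and the reporter strains had 7 and 14 cells.

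In the clusters compared with cluster 3, 1 strain stood apart from the other 3 in 6 of 58 groups looked at, where chance gives about 1 in 20. Ackr2 in cluster 2 was at 30.1 CPM in Acta2GFP and at 0 to 2.86 CPM elsewhere. Cxcl14 in cluster 4 was at 491 CPM in Cspg4dsRED against 43.2 to 101.7 CPM, and Fgl2 there at 524 CPM against 87.3 to 158.9 CPM. In cluster 2 of C57BL6, Fbln2 was at 1502 CPM against 1612 to 1632 CPM and Inmt at 274.5 CPM against 127.5 to 150.1 CPM. Ahsg in cluster 4 was at 15.7 CPM in PdgfrbGFP against 24.9 to 26.3 CPM.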

How the results depend on the processing

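No fitted log2 difference of a named gene changed sign under the alternatives tried. Apart from the markers, these genes were picked for 1 direction in the strains compared, so this was largely set by their selection. With the block edgeR called 26 genes higher and 9 lower. Without the block the counts were 0 and 0 in edgeR, 58 and 329 in DESeq2, and 8 and 11 in edgeR without the filter. Values here are the share of genes tested that passed. For cluster 3 against clusters 2, 4 and 5, edgeR passed 0% as reported, 0.0705% without the filter, 0.135% with plates as replicates, 0.0164% with thinned cells, 0.253% with equal weights and 0.00656% with cluster 1 added, and DESeq2 passed 2.71%. Leaving out each strain gave 0% each time without and 0% to 0.588% with the strain block. That block itself gave 0.236%, and plates as both replicates and block gave 0.177%. Against cluster 2, 0.235% became 4.32% in DESeq2, 0.604% with plates, 0.485% with thinned cells, 0.337% with the block, 0.828% with the block and plates, and 0.0292% to 0.175% without 1 strain. Against cluster 4, 0.174% became 0.173% without the filter (47 in place of 29 genes), 3.67% in DESeq2, 0.423% with plates, 0.403% with thinned cells, 0.210% with the block, 0.760% with the block and plates, and 0% to 0.0603% without 1 strain. Against cluster 5, 0.0180% became 0.0301% with DESeq2 size factors, 0.0479% without the filter, 0.967% in DESeq2, 0.0421% with the block, 0.156% with plates, 0.0895% with thinned cells, 0.237% with the block and plates, and 0% to 0.0422% without 1 strain. The cause was not tested. Of 629 alternative values for 44 pairs of named gene and comparison, 426 kept direction and side of the threshold, 54 lost a call and the others gained one. The mean differences in genes detected, spike-in ratio and mitochondrial share kept their direction, though with means over cells the mitochondrial share was higher in 2 of 3 strains, and none could reach significance with 3 strains. Where the block was combined with plates, it was the plate and not the strain. Those fits, and the block with strains left out, were added after seeing the data. The 2161999 counts of the PdgfrbGFP cells limit genes under about 1.39 CPM.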
